A study of Homo sapiens with 4 samples.

Results

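The genes described here encode vascular endothelial growth factor (VEGF) ligands and other secreted or surface regulators of blood vessel growth: the ligands VEGFA, VEGFB, VEGFC, PGF and ANGPTL4, the co-receptors NRP1 and NRP2, and the inhibitor THBS1. They were chosen by gene symbol, with earlier results of these data known. All 8 listed symbols were found among the 20263 genes of the count table. The set is therefore wider than ligands alone, since the neuropilins are receptors and THBS1 is a matrix protein. The cells were MDA-MB-231, an established human triple-negative breast cancer line grown in DMEM with fetal bovine serum. They received either Rib_CA, named in the series title as a derivative of the CDK4 and CDK6 inhibitor ribociclib, or DMSO as the control treatment, for 24 h. Each group had 2 libraries, and all 4 libraries came from the same line, which stands for a single tumour and holds no vessel wall of its own. The dose is not stated in the labels.

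VEGF ligands are secreted dimers that bind receptor tyrosine kinases on endothelial cells and drive the sprouting and leakiness of blood and lymphatic vessels. Neuropilins bind several of these ligands together with class 3 semaphorins and pass them to the kinase receptors or to plexins. Thrombospondin 1, the product of THBS1, is a matrix glycoprotein that restrains endothelial growth through receptors such as CD36 and CD47. Tumour cells are a common source of VEGFA, whose transcript is known to respond to hypoxia, nutrient stress and inflammatory signals.

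VEGFA rose in Rib_CA and was the only one of the 8 genes that passed the test. Its transcript was 4.06-fold higher, which made it 1 of 8 called higher, while none of the 8 was called lower. Of all 13667 genes tested, 2.01% were called higher and 5.11% lower, 7.13% in either direction. The threshold was an adjusted p under 0.05 in edgeR's quasi-likelihood test. Because the 8 genes were chosen with earlier results known, these shares do not make their count a test. VEGFB, VEGFC, PGF and ANGPTL4 had somewhat higher means and NRP1, NRP2 and THBS1 lower ones, none of which passed. For PGF and NRP1 the libraries of the groups overlapped. Both Rib_CA libraries lay above both DMSO libraries for 4 of the 8 genes and below them for 2. Such a lack of overlap was found for 58.8% of all genes tested (30.4% higher and 28.4% lower in Rib_CA), so it marks out none of the 8. Total-count scaling changed the balance of calls from 275 higher and 699 lower genes to 260 and 328. It shifted the median over all genes from 0.03 to 0.23 (log2) and left VEGFA called at 2.24. The call of VEGFA was lost in 3 of 15 alternatives, given below. The median log2 fold change of the 8 was 0.32, and that of all genes tested was 0.03. In bulk RNA, a change in the share of cells that make a transcript and a change in the amount per cell cannot be told apart.

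**Figure D1:**
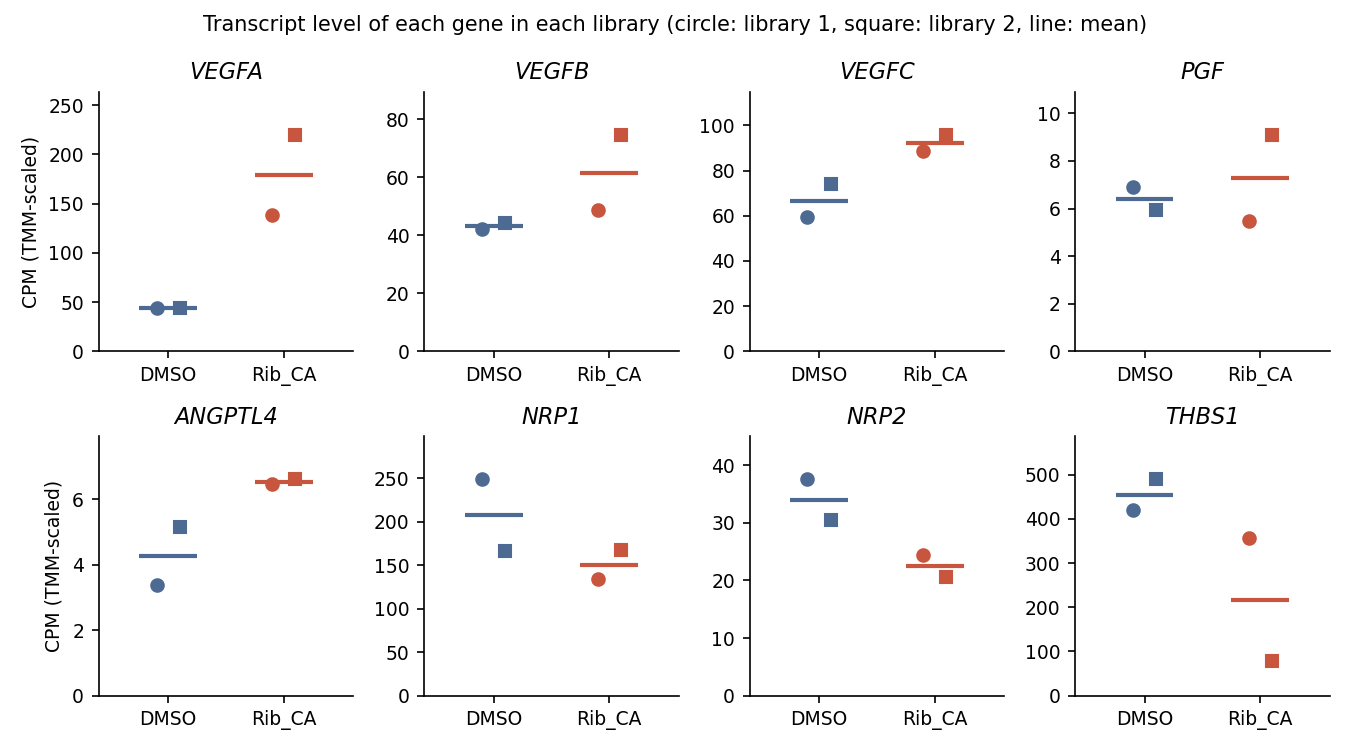
Transcript level of each of the 8 genes in each library, in CPM (counts divided by the TMM-scaled library size), on axes that start at 0. Circles are libraries numbered 1, squares those numbered 2, and lines are group means of 2 libraries. VEGFA lies at 43.9 and 44.3 CPM in DMSO and at 138 and 219 CPM in Rib_CA, and THBS1 is low in Rib_CA 2 alone.

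The libraries held 34774542 to 38865103 counts. Transcripts of the mitochondrial genome made up 8.68% and 21.7% of the counts in DMSO and 5.78% and 3.13% in Rib_CA, so the libraries also differed in RNA composition. Their part in the results below was not tested, beyond the fit without these genes, in which VEGFA had a log2 fold change of 2.04. Markers of the labelled line were abundant. The mesenchymal and keratin markers VIM, CD44, AXL, CAV1, KRT8 and KRT18 summed to 6214 to 7805 CPM per library. Of the genes that a triple-negative tumour lacks at the protein level, ESR1, the oestrogen receptor gene, had 4 to 23 counts per library, PGR, the progesterone receptor gene, 16 to 58, and ERBB2 2150 to 3414 (58.0 to 87.1 CPM). Markers of endothelial cells, which respond to these ligands, summed to 29.7 to 32.7 CPM in DMSO and 38.6 to 50.4 CPM in Rib_CA, nearly all from EGFL7. The defining endothelial gene ERG had no count in any library, and CDH5 had none in DMSO and 4 and 2 counts in Rib_CA. Fibroblast markers summed to 4.13 to 8.32 CPM, nearly all from COL1A1, while COL1A2 and DCN had no count. Leukocyte markers summed to 162 and 339 CPM in DMSO and 255 and 172 CPM in Rib_CA, nearly all from CD68, with 2 to 22 counts of PTPRC per library and none of CD3E.

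VEGFA, the ligand of the receptors FLT1 and KDR and the best known driver of vessel sprouting, spans bases 43770184 to 43786487 of chromosome 6 on the plus strand (GRCh38). It had 1521 and 1459 counts in the DMSO libraries and 5426 and 9448 in the Rib_CA libraries. As CPM, these were 43.9, 44.3, 138 and 219. The DMSO libraries were close to each other, and the lower Rib_CA library was still 3.13-fold above the higher DMSO library. The means were 44.1 ± 0.310 and 179 ± 57.3 CPM (SD, n = 2), with a log2 fold change of 2.02 ± 0.31 (SE; edgeR adjusted p = 0.0285). By p-value VEGFA ranked 191 of 13667 genes, and by fold change 79 of the 275 genes called higher. The call was lost without DMSO 1 (adjusted p = 0.0804), without DMSO 2 (adjusted p = 0.0594) and after correction of each library for transcript GC content and length (adjusted p = 0.0825), a setting in which no gene was called unless a replicate block was added. The fold change itself stayed between 3.14 and 4.83 over all 15 alternatives, whose adjusted p ran from 3.4e-07 to 0.0825.

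VEGFB (chromosome 11, bases 64234538 to 64238793, plus strand), a ligand of FLT1 linked to the supply of fatty acids to tissues, was at 42.2 and 44.3 CPM in DMSO and at 48.7 and 74.5 CPM in Rib_CA. The groups did not overlap, but Rib_CA 1 lay only 1.10-fold above the higher DMSO library. The log2 fold change was 0.51 ± 0.30 (adjusted p = 0.315). VEGFC (chromosome 4, bases 176683538 to 176792727, minus strand), the ligand of FLT4 that drives the growth of lymphatic vessels, was at 59.4 and 74.1 CPM in DMSO and at 88.5 and 95.6 CPM in Rib_CA. Its libraries also lay apart, with 1.19-fold between the nearest of them, and the log2 fold change was 0.46 ± 0.26 (adjusted p = 0.289). PGF (chromosome 14, bases 74941834 to 74955784, minus strand), which encodes placental growth factor, another ligand of FLT1, was at 6.89 and 5.95 CPM in DMSO and at 5.49 and 9.08 CPM in Rib_CA. Here the Rib_CA libraries enclosed the DMSO libraries, and the log2 fold change was 0.18 ± 0.40 (adjusted p = 0.806).

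Within each library, the balance among the VEGF ligands can be read without scaling between libraries. Per kb of the longest protein-coding transcript, VEGFA made up 16.5% and 14.99% of the summed level of VEGFA, VEGFB, VEGFC and PGF in DMSO, and 32.6% and 37.1% in Rib_CA. VEGFA stood at 0.405 and 0.391 times the level of VEGFB in the DMSO libraries, and at 1.11 and 1.149 times in the Rib_CA libraries. Relative to VEGFC it stood at 0.431 and 0.349 times in DMSO and at 0.914 and 1.34 times in Rib_CA. In both ratios the groups lay apart. The size of these values rests on the length chosen: per kb of all exonic bases, VEGFA made up 5.42% and 4.85% of the ligands in DMSO and 12.2% and 14.6% in Rib_CA, and stood at 0.111 and 0.107 times VEGFB in DMSO and at 0.305 and 0.315 times in Rib_CA, below it in all 4 libraries. The ratios are given without a test, since an exact two-sided permutation test of 2 libraries against 2 cannot give a p under 0.333.

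ANGPTL4 encodes a secreted inhibitor of lipoprotein lipase that also acts on vessel permeability, and it is known to respond to PPAR factors and hypoxia. It had 117 and 170 counts in DMSO and 253 and 284 in Rib_CA, the fewest in total of the 8 genes. The levels were 3.37 and 5.16 CPM in DMSO and 6.46 and 6.60 CPM in Rib_CA. Rib_CA libraries agreed closely and lay above both DMSO libraries, which differed more between themselves, and the log2 fold change was 0.61 ± 0.40 (adjusted p = 0.358). The gene lies at bases 8363289 to 8374373 of chromosome 19, plus strand.

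NRP1 (chromosome 10, bases 33177492 to 33336262, minus strand), the co-receptor of VEGFA and of SEMA3A, was at 249 and 167 CPM in DMSO and at 134 and 168 CPM in Rib_CA. The groups overlapped slightly, with DMSO 2 and Rib_CA 2 nearly equal, and the log2 fold change was -0.46 ± 0.30 (adjusted p = 0.363). NRP2 (chromosome 2, bases 205681990 to 205798133, plus strand), the co-receptor of VEGFC and of SEMA3F, was at 37.5 and 30.5 CPM in DMSO and at 24.4 and 20.7 CPM in Rib_CA. Both Rib_CA libraries lay below both DMSO libraries, with 1.25-fold between the nearest of them, and the log2 fold change was -0.60 ± 0.28 (adjusted p = 0.222). NRP1 was 7.51 and 6.18 times as high as NRP2 per kb in DMSO and 6.23 and 9.19 times in Rib_CA, ranges that overlapped.

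THBS1 (chromosome 15, bases 39581079 to 39599466, plus strand) was the most abundant of the 8 genes in DMSO and the least reproducible in Rib_CA. It had 14553 and 16117 counts in DMSO, 13947 in Rib_CA 1 and 3411 in Rib_CA 2. The levels were 420 and 489 CPM in DMSO, against 356 and 79.2 CPM in Rib_CA. Rib_CA 1 was thus 4.49-fold above Rib_CA 2 and near the DMSO libraries, so the mean of 218 ± 196 CPM (SD, n = 2) describes neither. The log2 fold change was -1.06 ± 0.63 (adjusted p = 0.315). It was -0.35 (adjusted p = 0.342) without Rib_CA 2 and -2.57 (adjusted p = 0.0013) without Rib_CA 1, where the gene was called lower on a single Rib_CA library. VEGFA per kb stood at 0.230 and 0.199 times THBS1 in DMSO, at 0.856 times in Rib_CA 1 and at 6.09 times in Rib_CA 2; per kb of all exonic bases the last was 1.76 times. Of the exonic bases of THBS1, 4.89% are shared with FSIP1 on the opposite strand, and FSIP1 had 6 to 14 counts per library.

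**Figure D2:**
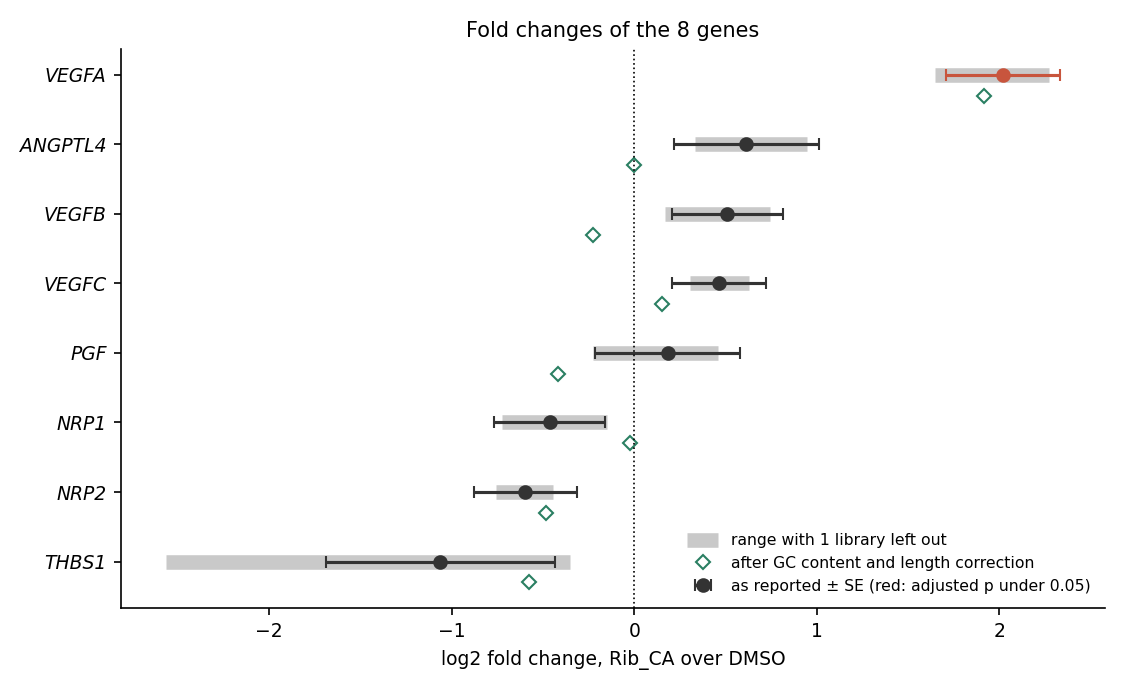
Log2 fold change of each of the 8 genes, Rib_CA over DMSO, as reported with its SE (circles; red where the adjusted p was under 0.05), with grey bars for the range when 1 library was left out and diamonds for the value after correction for GC content and transcript length. VEGFA stays between 1.65 and 2.27 with a library left out and lies at 1.92 after correction, while the diamonds of ANGPTL4 and NRP1 lie at 0.00 and -0.02.

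The start regions of THBS1 and ANGPTL4 are shown because these genes had the highest and the lowest level of the 8 in DMSO per kb of the longest protein-coding transcript. Sequences are from RefSeq (GRCh38.p14), in which a window was found for 6 of the 8 genes and not for VEGFA or NRP1. Each window covers the 250 bases before a start, and a sequence is printed 5′ to 3′ on the gene's strand up to the first base of any annotated exon. Capitals mark matches, on either strand and overlaps included, to the GC box GGGCGG, the CCAAT box CCAAT, the TATA box TATAAA, the hypoxia response core ACGTG and the AP-1 site TGANTCA. The THBS1 sequence is chr15:39580829-39581078 and the ANGPTL4 sequence is chr19:8363905-8364150, both on the plus strand. The latter lies before the RefSeq start and inside the longer GENCODE gene.
THBS1: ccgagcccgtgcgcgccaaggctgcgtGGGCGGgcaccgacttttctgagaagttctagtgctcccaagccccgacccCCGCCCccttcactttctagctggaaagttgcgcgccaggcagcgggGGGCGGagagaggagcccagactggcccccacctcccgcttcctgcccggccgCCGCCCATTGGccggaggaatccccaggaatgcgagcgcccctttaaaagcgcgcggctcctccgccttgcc
ANGPTL4: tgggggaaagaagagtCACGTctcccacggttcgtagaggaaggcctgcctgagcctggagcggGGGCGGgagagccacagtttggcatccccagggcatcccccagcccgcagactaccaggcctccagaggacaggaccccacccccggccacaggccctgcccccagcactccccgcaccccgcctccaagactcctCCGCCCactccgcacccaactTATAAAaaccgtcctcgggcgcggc

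THBS1 held 4 GC boxes and 1 CCAAT box, the last GC box running into the CCAAT box. ANGPTL4 held 2 GC boxes, 1 hypoxia response core and 1 TATA box, which began 29 bases before the start. In the RefSeq windows the GC box was present for all 6 genes that had one, and in 42.6% of all 35116 windows. The TATA box and the hypoxia response core were found among the 6 genes only in ANGPTL4, against 10.7% and 18.5% of all windows, and the CCAAT box only in THBS1, against 32% of all windows. The AP-1 site was in none of them and in 6.57% of all windows. These matches describe letters in a short window and say nothing of binding.

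Levels of different genes were compared per kb of the longest protein-coding transcript. In DMSO the order was THBS1 (58.4 ± 6.34 CPM per kb), NRP1 (35.3 ± 9.88), VEGFC (32.3 ± 5.04), VEGFB (31.3 ± 1.04), VEGFA (12.5 ± 0.0878), NRP2 (5.11 ± 0.743), PGF (3.33 ± 0.345) and ANGPTL4 (2.27 ± 0.673; SD, n = 2 throughout). The libraries of NRP1, VEGFC and VEGFB overlapped, so these neighbours were not separated, while THBS1 lay above them and VEGFA below. In Rib_CA the order was VEGFA (50.6 ± 16.2), VEGFB (44.64 ± 13.3), VEGFC (44.59 ± 2.46), THBS1 (27.98 ± 25.2), NRP1 (25.6 ± 4.03), PGF (3.78 ± 1.32), ANGPTL4 (3.47 ± 0.0529) and NRP2 (3.38 ± 0.395). There each of the first 5 overlapped its neighbour in the order, as did each of the last 3, and a gap separated NRP1 from PGF. The order depends on the length used. Per kb of all exonic bases of a gene, which include retained introns, the VEGFA means were 3.05 and 12.4 and it ranked 5 of the 8 in both groups, and PGF (1.08 in DMSO) came below ANGPTL4 (1.72).

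**Figure D3:**
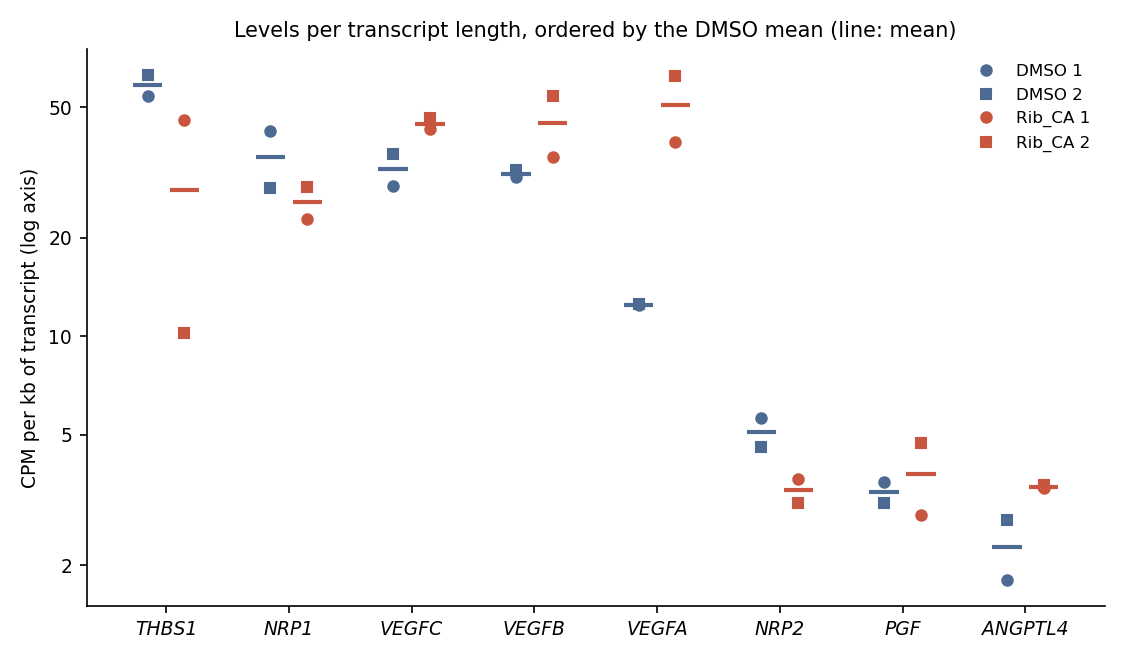
Levels of the 8 genes per kb of the longest protein-coding transcript, on a log axis, ordered by the DMSO mean (circles: libraries 1, squares: libraries 2, lines: means). VEGFA moves from 12.5 CPM per kb in DMSO to 50.6 in Rib_CA, into the range of VEGFB and VEGFC.

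The 8 transcripts differ in base composition and length, and no gene was called once GC content and transcript length were corrected for without a replicate block. With the block added to that correction 83 genes were called higher and 83 lower, VEGFA among the former (log2 fold change 1.86, adjusted p = 0.0393). The block pairs libraries by number. Deviations of same-numbered libraries from their group means correlated negatively (r = -0.186), so the values do not back this pairing. VEGFB, PGF and ANGPTL4 have transcripts of 66.7%, 64.5% and 63.3% GC, and their log2 fold changes went from 0.51, 0.18 and 0.61 to -0.22, -0.42 and 0.00 after the correction. NRP1 and THBS1, at 44.7% and 45.6% GC, went from -0.46 and -1.06 to -0.02 and -0.58. VEGFA, at 51.3%, kept 1.92 of its 2.02. VEGFC, at 51.4%, went from 0.46 to 0.15, and NRP2, at 50.4%, from -0.60 to -0.48. The correction used transcript length as well as GC content, so the shifts need not follow GC content alone. The correction cannot tell a change in the cells from a technical one where either follows base composition or transcript length.

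Genes whose profiles over the 4 libraries were nearest to that of VEGFA, among 9688 genes averaging 10 CPM or more, were TM4SF19, a tetraspan membrane protein gene, ISG15, which encodes an interferon-induced ubiquitin-like protein, and LURAP1L. The distance between centred log2 CPM profiles was 0.133, 0.144 and 0.153. Their log2 fold changes were 2.04, 1.88 and 2.03. With only 4 libraries, this likeness says little more than that they rose by a like amount and that Rib_CA 2 was the higher library.

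Around the 8 genes stand the receptors, partners and rivals of these ligands, taken from 11 lists that hold further genes of the pathway. These lists too were chosen with earlier results of these data known. Of the kinase receptors for VEGF and angiopoietins, 2 of 5 were high enough to test and neither passed, against 7.13% of all genes tested. KDR, the main receptor of VEGFA, was at 6.75 and 6.04 CPM in DMSO and at 2.71 and 14.1 CPM in Rib_CA, a spread that enclosed the DMSO libraries (log2 fold change 0.39 ± 0.70; adjusted p = 0.762). For TIE1, a receptor of the angiopoietin system, the log2 fold change was 0.17 (adjusted p = 0.926). FLT1 had 2 counts in Rib_CA 1 and none elsewhere, FLT4 had 2 counts in DMSO 1 and 4 in Rib_CA 1, and TEK had none in any library. A count of 0 allows up to 3 counts, or 0.0772 to 0.0863 CPM before TMM scaling.

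Among the class 3 semaphorins, plexins and the adaptor gene GIPC1, listed as partners of the neuropilins, 13 of 13 were tested, 2 fell and none rose. Of all genes tested, 5.11% fell and 2.01% rose. SEMA3A, which repels axons and endothelial cells through NRP1, fell from 32.4 and 24.3 CPM in DMSO to 10.4 and 5.30 CPM in Rib_CA (3.61-fold lower; log2 fold change -1.85 ± 0.41; adjusted p = 0.0469). SEMA3D, another class 3 semaphorin, fell from 8.13 and 5.80 CPM to 1.33 and 1.86 CPM (4.36-fold lower; adjusted p = 0.0417). In both genes all Rib_CA libraries lay below all DMSO libraries, as in 7 of the 13 genes of the list and 28.4% of all genes tested. Both calls were lost without DMSO 1 (adjusted p = 0.168 and 0.259), without DMSO 2 (adjusted p = 0.0501 and 0.098), under scaling by total counts (adjusted p = 0.062 and 0.0688) and after the GC content and length correction, where SEMA3A was 1.81-fold and SEMA3D 2.62-fold lower. Without Rib_CA 1 SEMA3A was 5.48-fold lower. The median of the list was -0.29.

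In the list of other thrombospondins and THBS1 receptors, 9 of 12 genes were tested, 1 rose and none fell, against 2.01% and 5.11% of all genes tested. THBS3, a relative of THBS1 that forms pentamers, rose from 6.80 and 7.44 CPM in DMSO to 19.96 and 18.4 CPM in Rib_CA (2.69-fold; log2 fold change 1.43 ± 0.30; adjusted p = 0.0424). Its libraries agreed well within each group, in contrast to those of THBS1. The call was lost without DMSO 1 (adjusted p = 0.277), without DMSO 2 (adjusted p = 0.226), with a replicate block (adjusted p = 0.0643) and after the GC content and length correction (2.22-fold; adjusted p = 0.0925). THBS3 shares 3.16% of its exonic bases with MTX1 on the opposite strand. ITGA3, an integrin subunit, had the next smallest p of the list, at 0.72 on the log2 fold change scale (adjusted p = 0.226). The median of this list was 0.10.

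No gene passed among the 4 tested of VEGFD, angiopoietins and angiopoietin-like genes (11 listed). None passed among the 18 tested other pro-angiogenic genes (21 listed) or the 10 tested other inhibitors of vessel growth (16 listed). Of all genes tested, 7.13% passed in either direction. The list medians were -1.33, 0.16 and -0.27, in that order. ANGPT4, an angiopoietin, had a value of 2.04 on the log2 fold change scale from a DMSO mean of 0.411 CPM (adjusted p = 0.105), and ANGPTL2 one of -1.25 (adjusted p = 0.131). TYMP, an enzyme known as platelet-derived endothelial cell growth factor, had one of 2.05 from a DMSO mean of 0.848 CPM (adjusted p = 0.078). The growth factor gene PDGFD had one of -1.18 (adjusted p = 0.128). Among the inhibitors, TIMP2, an inhibitor of matrix proteases, was at 138 and 139 CPM in DMSO and at 556 and 194 CPM in Rib_CA (adjusted p = 0.115). For COL18A1, the source of endostatin, the log2 fold change was 0.64 (adjusted p = 0.209).

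The remaining lists concern how these ligands are made and controlled. None of 18 tested hypoxia-responsive genes passed: 12 had positive and 6 negative fold changes, and the median was 0.32. Of all 13667 genes tested, 7.13% passed in either direction, 7094 had positive and 6573 negative fold changes, and the median was 0.03. That 7.13% also stands against the lists below in which none passed. For KDM3A, a histone demethylase gene, the log2 fold change was -1.23 (adjusted p = 0.0742), and for PGK1, a glycolysis gene, it was 0.91 (adjusted p = 0.149). Among PPAR-responsive genes, 9 of 11 were tested and 1 fell, against 5.11% of all genes tested. The gene that fell was CREB3L3, which encodes a transcription factor of lipid metabolism. It had 24 and 39 counts in DMSO and none in Rib_CA (adjusted p = 0.0315). Its DMSO mean lay 12.8-fold above a floor of 3 counts per library, which covers counting error only. Its call was lost after the GC content and length correction (adjusted p = 0.0825) but not with the block added (adjusted p = 0.0464). DESeq2 gave CREB3L3 no adjusted p, and the filter of 5 CPM removed it. HILPDA, a lipid droplet gene, was at 0.65 on that scale (adjusted p = 0.222), and the median of the list was 0.26, also with CREB3L3 at its bound. None of 7 genes for ligand maturation passed, with CTSD, which encodes cathepsin D, at a log2 fold change of 0.84 (adjusted p = 0.0927), ADAMTS3, whose product cleaves VEGFC, at -1.98 (adjusted p = 0.0932) and a median of 0.29. None of 3 tested partners of lipoprotein lipase passed (7 listed, median 0.14). LMF1, a folding factor of the lipase, was at 1.54 from a DMSO mean of 0.861 CPM (adjusted p = 0.109). LPL itself was at 0.14 from a DMSO mean of 1.01 CPM (adjusted p = 0.937). Of 6 genes for RNA-binding proteins that act on the VEGFA message none passed (median 0.21), with DHX9, a helicase gene, at -1.21 (adjusted p = 0.0674) and ZFP36L1, which destabilises messages, at 1.03 (adjusted p = 0.199).

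**Figure D4:**
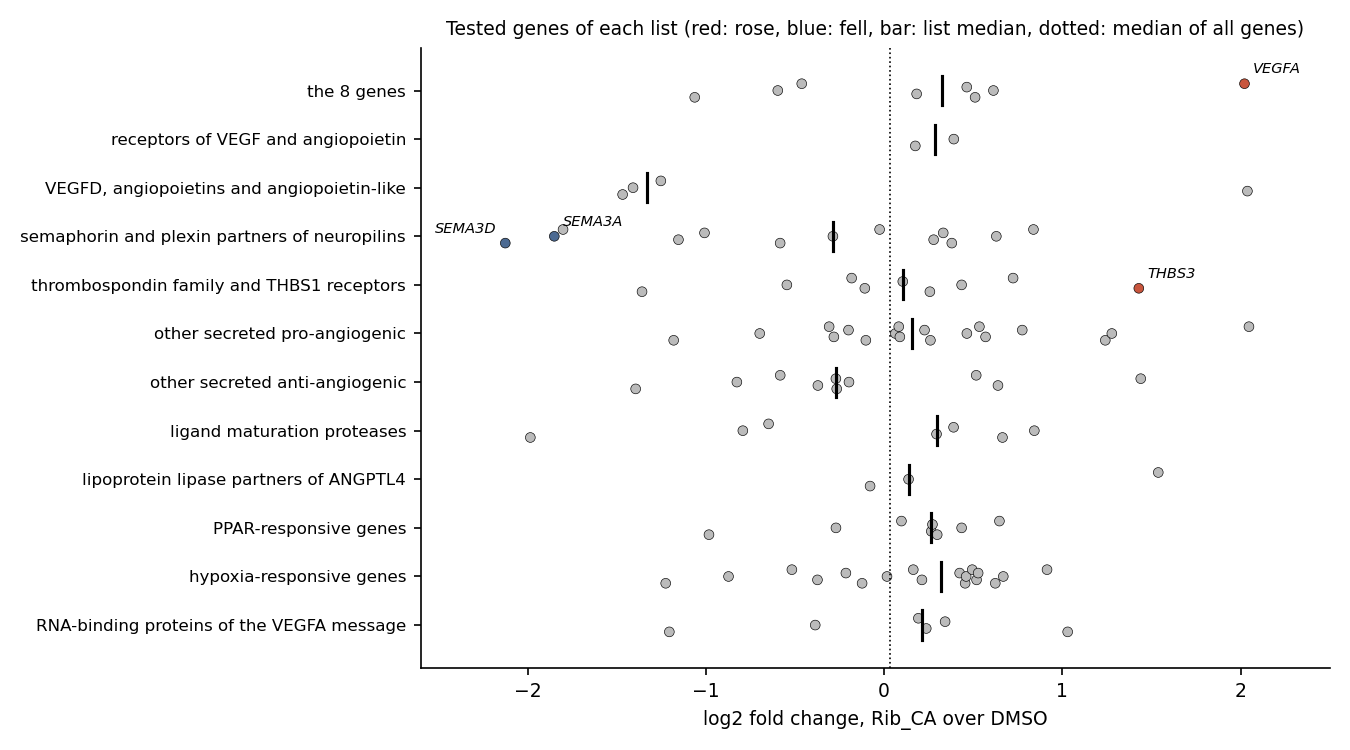
Log2 fold changes, Rib_CA over DMSO, of the tested genes in each list (red: rose, blue: fell, grey: did not pass; bars: list medians; dotted line: median of all genes tested, 0.03). VEGFA and THBS3 are the red points and SEMA3A and SEMA3D the blue ones; CREB3L3, at 0 counts in Rib_CA, is not drawn.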

How the data were processed

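Gene expression was measured by sequencing mRNA libraries of MDA-MB-231 cells, for which the labels' protocols name a Hieff mRNA kit. The authors deposited raw counts per gene, with no normalisation. The aligner, counting tool and use of strand were not given in the sources used here. The submitters' processing notes name mouse builds (GRCm38, mm10) although the row names are human Ensembl IDs. Symbols came from a gene name table, gene models, transcript lengths and GC contents from GENCODE release 29 (GRCh38). Even values made up 67.7 to 70.7% of values from 1 to 10, so 1 count may not be 1 fragment, and the floor of 3 counts covers counting error only.

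Groups follow the library titles. The labels do not state whether replicates were separate cultures; p-values therefore measure only the spread between these libraries, which may be technical. Within groups, the 2 libraries differed by 257 (DMSO) and 265 (Rib_CA) times their degrees of freedom in a chi-square test. Counts were filtered with filterByExpr (minimum count 10, total 15), scaled by TMM (factors 0.872 to 1.14) and tested in edgeR 4.0.16 (R 4.3.3) by glmQLFit and glmQLFTest with Benjamini-Hochberg adjustment over all 13667 genes and a threshold of 0.05. Each SE was obtained from the log2 fold change and the F statistic (size of the change over the square root of F). The fit was tested on simulated data, where it recovered most large changes and made more false calls than the threshold allows.

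The genes and lists were chosen with earlier results of these data known. Named are the 8 genes, every called gene of each list and its 2 smallest p, and the 3 genes nearest to VEGFA. Alternatives were DESeq2 1.42.0, limma-voom (limma 3.58.1), other scalings and filters, a replicate block, a GC content and length smooth (mgcv 1.9.3) as offset, and each library left out, where the lone library of a group is assumed to vary like the other group. Figures used matplotlib 3.10.9.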

Additional observations from a re-analysis of the deposited data

How the results depend on the processing

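Of 120 refits of the 8 genes under 15 alternatives, 110 kept direction and side of the threshold, 3 lost the call of VEGFA, 1 gained a call for THBS1 and 6 turned direction in genes that were never called. PGF ran from -0.23 (without Rib_CA 2) to 0.46 with 1 library left out. After the GC content and length correction VEGFB was at -0.22, PGF at -0.42 and ANGPTL4 at -0.0014, and with the replicate block added VEGFB was at -0.28 and PGF at -0.49. Under that correction 0 genes were called, none of the 8 among them, with 3378 at an unadjusted p under 0.05, and with the block 83 were called higher and 83 lower. Without the correction, 275 genes were called higher and 699 lower. The replicate block alone gave 260 and 687, and 1 of the 8 higher and 0 lower, but ended the call of THBS3 (adjusted p = 0.0643). Deviations of same-numbered libraries from their group means correlated weakly and negatively (r = -0.186). With 2 libraries per group the crossed pairs then give 0.186 by construction. The crossed pairing, chosen after seeing the data, gave 724 higher and 1267 lower. DESeq2 called 1043 higher and 1514 lower, no filter 448 higher, a filter of 5 CPM 418 higher, and total-count scaling 328 lower. With 1 library left out, 36 to 1234 genes were called higher and 137 to 1634 lower (36 and 137 leaving out DMSO 1, 53 and 356 leaving out DMSO 2, then 1234 and 1634 leaving out Rib_CA 1, then 1128 and 1596 leaving out Rib_CA 2), and 0 to 1 of the 8 in each direction. Scaling by DESeq2 size factors or total counts turned no direction among the 8. The cause of these changes was not tested. PGF and ANGPTL4 had the fewest counts of the 8, with 117 to 391 per library.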
